A study of Rattus norvegicus with 20 samples.

Results

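The genes described here build, line and signal to blood and lymphatic vessels. They were taken from a list of 36 names that runs from the vascular endothelial growth factors and their receptors to endothelial junction proteins, Notch pathway genes and lymphatic markers. A gene was a member where the gene count table has a row of that name, and 35 of the 36 had one, of 32545 genes in the table. The other name, Pecam1, was not analysed here. All 35 passed the filter on low counts, under which 17653 genes were tested, and they lie on 18 chromosomes. RNA was sequenced from inguinal white adipose tissue (iWAT), a fat depot under the skin of the groin, of male ZSF1 rats in 4 groups of 5 rats each. Obese rats are homozygous for leptin receptor deficiency and overeat, and 3 groups had that genotype. Cmpd 1 rats were obese rats given Cmpd 1, an inhibitor of the protein kinases PKCα and PKCβ, in their chow for 10 weeks. Food matched rats were obese rats given chow without drug in the amount the Cmpd 1 rats had eaten the week before. Obese rats had chow without drug and no such limit. Lean rats were ZSF1 rats that are not homozygous for the deficiency, had no drug, and served as the reference for disease. All groups ate Purina 5008 chow, entered the study at 22 weeks of age and were killed at about 32 weeks. The deficiency is carried by every cell of the obese rats, so no group separates the fat depot from the rest of the animal. In the labels the Food matched samples have obese in the title and lean in the phenotype field, and they were grouped by title.

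Blood vessels form and are kept up through a few ligand and receptor systems. Vegfa binds the receptor Kdr (VEGFR2), which drives endothelial growth and permeability, and Flt1 (VEGFR1), which also binds Vegfb and Pgf. Vegfc acts mainly through Flt4 (VEGFR3) on lymphatic vessels. Angpt1, made largely by cells around vessels, keeps endothelium quiet through the receptor Tek (Tie2), while Angpt2 can oppose it. Apln, the peptide apelin, is secreted by adipocytes among other cells and acts on the receptor Aplnr. Endothelial cells line each capillary of fat, where they control the entry of lipids and immune cells. A fat depot needs new vessels as it grows.

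Read counts were scaled to CPM, the counts a library of 1000000 counts would hold, with TMM, a normalization that aligns libraries on most of their genes. The main comparisons were Obese versus Lean, for disease, and Cmpd 1 versus Food matched, for Cmpd 1 beyond food intake, and they share no samples. A gene was called higher or lower where its fold change was over 1.5 (0.585 on the log2 scale) and its adjusted p was under 0.05. Adjusted p-values are Benjamini-Hochberg values over all genes tested, from the quasi-likelihood test of edgeR, and the standard error (SE) of a log2 fold change comes from the same fit. Differences between groups given with an SE are log2 fold changes. Each sample was a different rat.

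Library totals ran from 31.7 to 74.8, in units of 1000000 counts. Lepr, the leptin receptor gene, averaged 1.43 CPM in Cmpd 1, 1.82 in Food matched and 1.56 in Obese rats, against 7.66 in Lean rats. Some libraries had high levels of markers of other tissues. The summed CPM of 7 skeletal muscle markers was 3077 in Lean rat 1 and 5354 in Lean rat 2, 86.5 in Food matched rat 5 and at most 24.2 in the rest. Epithelial and gland markers summed to 118 in Lean rat 2, 47.4 in Obese rat 4 and 30.6 in Lean rat 5. Calls that were gained or lost without these 5 libraries are named below. Without them the Lean group rests on Lean rats 3 and 4 alone. The effect of fewer rats and that of RNA from other tissues cannot be told apart in that setting. The 8 macrophage markers summed to 2383 to 3392 CPM in Cmpd 1 rats, against 3477 to 6415 in Food matched rats, and to 3169 to 4637 in Obese rats, against 1407 to 1762 in Lean rats. None of the 8 was at 0 in any library. In whole tissue, fewer cells of a type and less RNA per cell cannot be told apart.

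The endothelial markers Cdh5, Kdr, Tie1, Erg, Egfl7 and Esam had reads in every library. In Obese versus Lean, 3 members were called higher (Apln, Pgf and Nrp1) and 9 lower (Vegfc, Angpt1, Tek, Aplnr, Cldn5, Mcam, Plvap, Prox1 and Pdpn). Among all genes tested, 22.3% were called in this comparison, 11.3% higher and 11.0% lower. Another 12 members had an adjusted p under 0.05 but a fold change under 1.5, 10 of them lower and 2 higher. By adjusted p alone, 5 members were higher and 19 lower, where 48.2% of all genes passed (23.7% higher and 24.5% lower). The median log2 fold change of the 35 members was -0.30, beside -0.014 over all genes tested. Levels in Obese and Lean rats did not overlap for 18 members, 4 higher and 14 lower, where 33.6% of all genes had groups that did not overlap (17.7% higher and 15.9% lower).

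In Cmpd 1 versus Food matched, 4 members were called higher (Vegfa, Vegfc, Aplnr and Egfl7) and 1 lower (Pgf), against 6.19% of all genes called, 1.54% higher and 4.65% lower. A further 8 members had an adjusted p under 0.05 below the fold threshold, 5 higher and 3 lower. By adjusted p alone, 9 were higher and 4 lower, where 22.8% of all genes passed (11.4% in each direction). The median log2 fold change was 0.13, beside 0.0058 over all genes tested. Groups did not overlap for 7 members that were higher and 3 that were lower in Cmpd 1 rats, where 14.9% of all genes had groups that did not overlap (7.05% higher and 7.86% lower). Vegfc, Pgf and Aplnr were called in both comparisons, each in opposite directions. The sign of the log2 fold change was opposite in the 2 comparisons for 32 of 35 members (91.4%), beside 69.4% of all genes tested. Among all genes called in Obese versus Lean, that share was 82.5%.

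**Figure D1:**
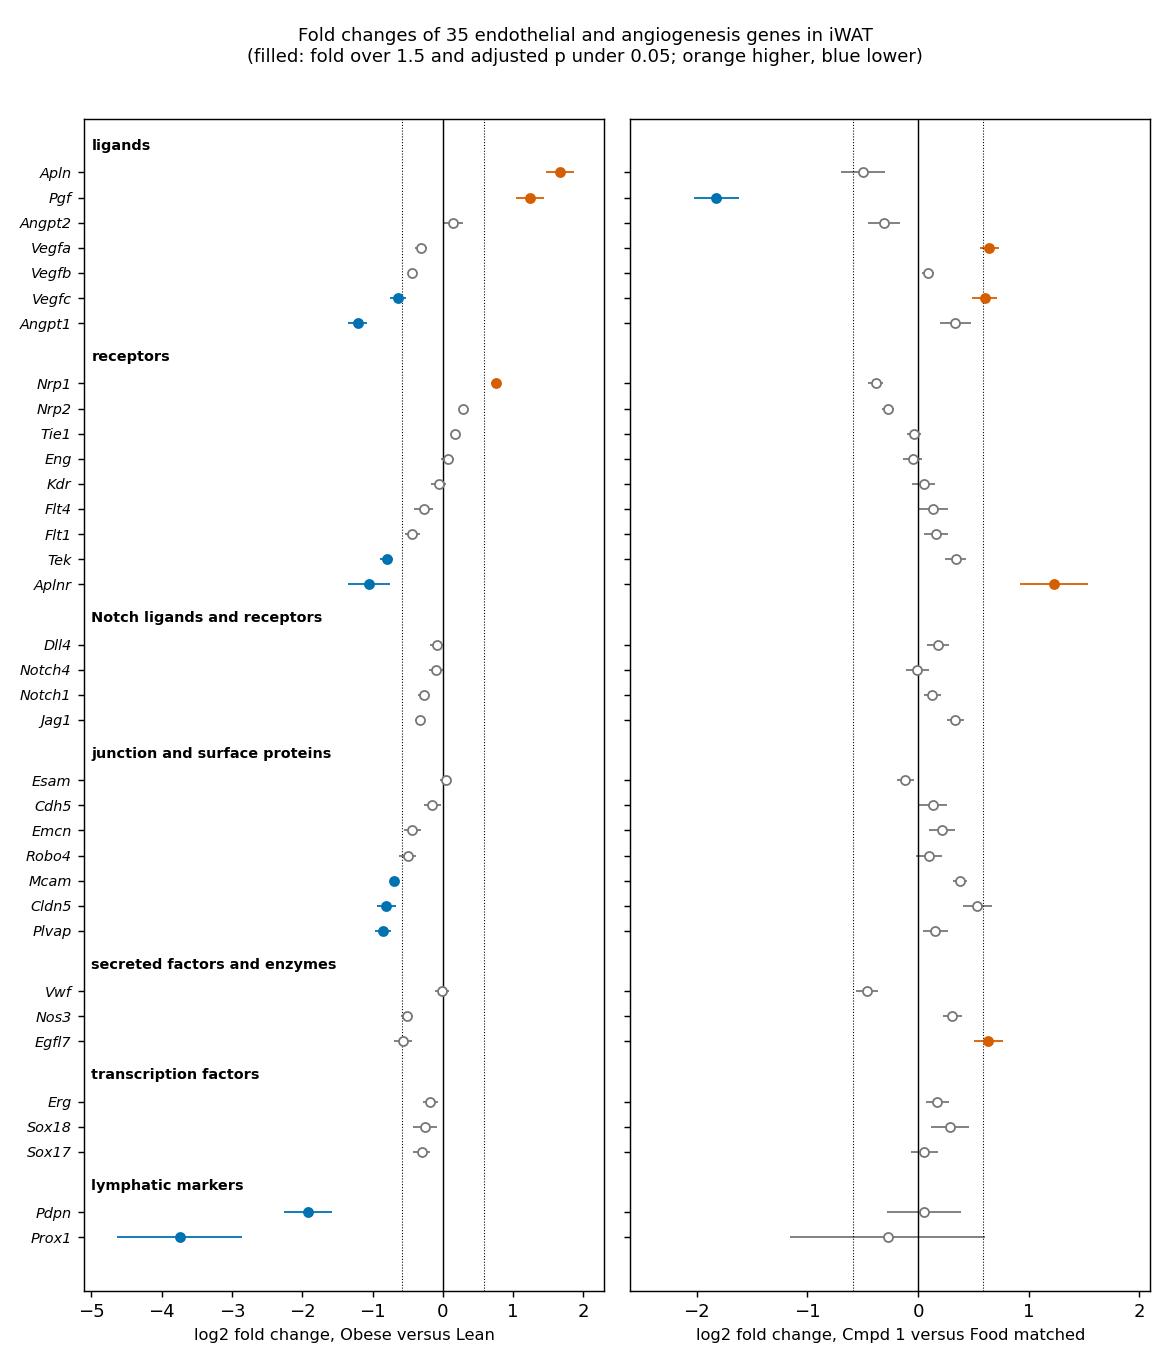
Log2 fold changes of the 35 members (x axes) by role (y axis), in Obese versus Lean on the left and Cmpd 1 versus Food matched on the right, with bars for 1 SE, dotted lines at a fold of 1.5 and filled points for called members. Called members on the left are Apln, Pgf and Nrp1 on the higher side and 9 on the lower side, and on the right Pgf lies alone on the lower side at -1.82.

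Of the 7 ligands, 2 rose and 2 fell in Obese versus Lean, and 2 rose and 1 fell in Cmpd 1 versus Food matched. Pgf (ENSRNOG00000005650, chr6:108994018-109004598, minus strand in rn6, the build of the files) encodes placental growth factor, which binds Flt1. Pgf stood at 2.72, 1.99, 2.08, 2.45 and 2.69 CPM in Cmpd 1 rats, against 10.7, 7.55, 9.06, 8.50 and 6.44 CPM in Food matched rats. Obese rats had Pgf at 6.81, 6.21, 4.02, 5.51 and 7.36 CPM, against 2.99, 3.82, 1.92, 1.93 and 1.94 CPM in Lean rats. Every Obese rat lay above every Lean rat, and every Cmpd 1 rat lay below every Food matched rat. Pgf rose in Obese versus Lean, with a log2 fold change of 1.25 (SE 0.20, adjusted p = 3e-05). It fell in Cmpd 1 versus Food matched, with -1.82 (SE 0.20, adjusted p = 3.3e-05), the lowest value of any member in that comparison. Cmpd 1 and Lean rats, whose Pgf levels overlapped, differed by -0.079 (SE 0.20, adjusted p = 0.79) on the log2 scale.

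Apln (ENSRNOG00000003984, chrX:134856726-134866210, minus strand) had the highest fold change of the members in Obese versus Lean. Apln stood at 23.4, 14.5, 18.5, 15.7 and 12.5 CPM in Cmpd 1 rats, against 21.2, 18.2, 20.4, 24.1 and 35.7 CPM in Food matched rats. Obese rats had Apln at 47.4, 42.9, 27.2, 25.0 and 29.8 CPM, against 9.37, 9.30, 12.3, 10.8 and 12.5 CPM in Lean rats. The lowest Obese rat was at 25.0 CPM and the highest Lean rat at 12.5 CPM, so the groups did not overlap. Apln rose in Obese versus Lean by 1.67 (SE 0.20, adjusted p = 1.1e-06) on the log2 scale. Cmpd 1 and Food matched rats overlapped, and the difference was -0.50 (SE 0.20, adjusted p = 0.08). Without Cmpd 1 rat 1, which had the highest Apln of its group, that difference was -0.65 and was called.

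The sequences before and around the start of 4 members that were called in Obese versus Lean are shown, 3 that were higher and Plvap, which was lower. They are RefSeq windows of assembly GRCr8, from 250 bases before to 50 after the start, printed 5′ to 3′ on the gene's strand, with each GGAAG, the core letters bound by ETS factors such as Erg, and its complement CTTCC in capitals. The windows lie at chr6:110557698-110557997 (- strand) for Pgf, chrX:132091197-132091496 (- strand) for Apln, chr19:73256307-73256606 (+ strand) for Nrp1 and chr16:18231230-18231529 (- strand) for Plvap. These 4 are the members called in Obese versus Lean whose windows hold the marked letters. The windows of Vegfc, Cldn5 and Pdpn, also called lower, hold none of them and are not shown. No window was found for Angpt1, Tek, Aplnr, Mcam and Prox1. A window of Vegfa and a window of Egfl7, which were called in Cmpd 1 versus Food matched, also hold these letters and are not shown.
Pgf: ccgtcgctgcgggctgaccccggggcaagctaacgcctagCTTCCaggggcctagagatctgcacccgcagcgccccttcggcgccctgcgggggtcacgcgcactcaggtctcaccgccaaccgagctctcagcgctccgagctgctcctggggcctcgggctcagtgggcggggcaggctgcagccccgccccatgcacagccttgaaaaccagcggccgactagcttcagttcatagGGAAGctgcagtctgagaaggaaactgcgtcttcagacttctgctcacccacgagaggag
Apln: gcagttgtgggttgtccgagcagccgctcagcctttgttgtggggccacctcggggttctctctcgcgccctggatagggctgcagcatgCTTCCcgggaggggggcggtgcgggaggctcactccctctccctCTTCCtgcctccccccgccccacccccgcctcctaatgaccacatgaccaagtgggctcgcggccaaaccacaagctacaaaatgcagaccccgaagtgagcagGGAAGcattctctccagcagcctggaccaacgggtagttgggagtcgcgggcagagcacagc
Nrp1: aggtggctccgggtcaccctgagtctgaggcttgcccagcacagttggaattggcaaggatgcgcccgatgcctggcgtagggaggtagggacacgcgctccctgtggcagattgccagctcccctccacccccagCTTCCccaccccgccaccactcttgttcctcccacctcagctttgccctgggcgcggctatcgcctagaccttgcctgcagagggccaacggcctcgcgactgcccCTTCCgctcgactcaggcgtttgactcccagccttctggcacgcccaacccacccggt
Plvap: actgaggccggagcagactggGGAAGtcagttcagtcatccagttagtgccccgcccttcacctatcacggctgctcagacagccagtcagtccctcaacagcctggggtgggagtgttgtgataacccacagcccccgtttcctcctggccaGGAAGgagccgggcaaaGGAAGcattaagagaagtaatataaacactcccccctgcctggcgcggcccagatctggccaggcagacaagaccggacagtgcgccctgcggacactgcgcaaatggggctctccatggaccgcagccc
Windows were found for 23 of the 36 names, 25 windows in all. GGAAG, searched on both strands after the longer ETS letters CCGGAAGT had matched in 0 member windows, was in 68.0% of member windows and 70.1% of all 33469 windows. It lies within CCGGAAGT, which was in 3.81% of all windows. The core of the hypoxia response element, ACGTG, was in 1 member window, that of Robo4 (4.0%), and in 19.3% of all windows. The SOX letters AACAAT were in 12.0% of member windows and 11.7% of all, and the E-box CACCTG in 12.0% and 18.8%.

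Vegfa (ENSRNOG00000019598, chr9:17340341-17355681, plus strand) encodes the main growth factor for blood vessels. Vegfa stood at 182, 188, 199, 200.0 and 184 CPM in Cmpd 1 rats, against 109.8, 131, 108, 118 and 143 CPM in Food matched rats. Obese rats had Vegfa at 149, 146, 135, 121 and 133 CPM, against 204, 172, 164, 153 and 158 CPM in Lean rats. Each Cmpd 1 rat was above every Food matched and every Obese rat, and each Obese rat was below every Lean rat. Vegfa rose in Cmpd 1 versus Food matched, with a log2 fold change of 0.64 (SE 0.08, adjusted p = 6.9e-05). In Obese versus Lean it was -0.31 (SE 0.08, adjusted p = 0.0036), under the fold threshold. The 8 adipocyte markers, which mark a cell type that also makes Vegfa, summed to 18484 to 21680.0 CPM in Cmpd 1 rats, against 15022 to 19607 in Food matched rats, and to 17602 to 20924 in Obese rats, against 22930 to 28270.3 in Lean rats. Of these 8 markers, 1 was called higher in Cmpd 1 versus Food matched and 6 lower in Obese versus Lean, with none at 0, and their part in the Vegfa result was not tested.

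Vegfc (ENSRNOG00000011416, chr16:40440207-40555576, minus strand) is the ligand of Flt4. Vegfc stood at 12.2, 10.9, 13.9, 15.0 and 12.5 CPM in Cmpd 1 rats, against 9.04, 8.91, 9.77, 7.10 and 7.52 CPM in Food matched rats. Obese rats had Vegfc at 8.92, 9.51, 7.74, 7.33 and 10.9 CPM, against 14.3, 11.7, 14.9, 13.7 and 14.5 CPM in Lean rats. Neither pair of groups overlapped. Vegfc fell in Obese versus Lean, -0.64 (SE 0.11, adjusted p = 8.7e-05), and rose in Cmpd 1 versus Food matched, 0.60 (SE 0.11, adjusted p = 0.00083). Both fold changes lay close to the threshold. The first was -0.58 and not called without Obese rat 4. The second was 0.55 to 0.58 and not called without Food matched rat 4 or 5, without Cmpd 1 rat 3 or 4, or without the 5 libraries with RNA of other tissues.

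Angpt1 (ENSRNOG00000005854, chr7:81342280-81592206, minus strand) encodes the Tek ligand that stabilizes vessels. Angpt1 stood at 11.3, 11.9, 18.3, 14.4 and 12.2 CPM in Cmpd 1 rats, against 12.4, 9.74, 12.3, 9.17 and 10.2 CPM in Food matched rats. Obese rats had Angpt1 at 13.0, 15.4, 13.5, 11.7 and 13.0 CPM, against 22.3, 34.8, 35.8, 30.3 and 30.3 CPM in Lean rats. Lean rats stood apart from all 3 obese groups. Angpt1 fell in Obese versus Lean, with a log2 fold change of -1.21 (SE 0.14, adjusted p = 3.2e-07) on the log2 scale, and Cmpd 1 and Food matched rats, which overlapped, differed by 0.34 (SE 0.14, adjusted p = 0.081). The other 2 ligands were not called in either comparison. Vegfb, a Flt1 ligand, had -0.43 (SE 0.05, adjusted p = 1.7e-06) in Obese versus Lean and 0.088 (SE 0.05, adjusted p = 0.28) in Cmpd 1 versus Food matched. Angpt2, which endothelial cells store and release, had 0.15 (SE 0.14, adjusted p = 0.41) and -0.31 (SE 0.14, adjusted p = 0.14).

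**Figure D2:**
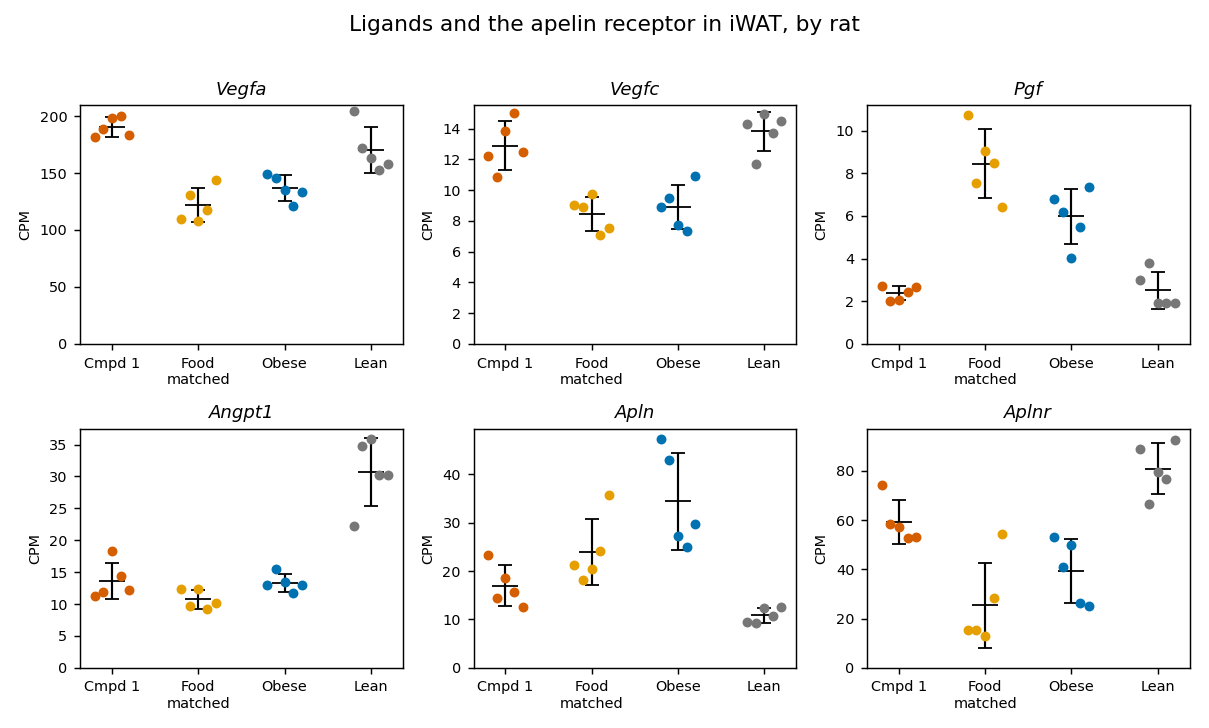
CPM (y axes, from 0) of 5 ligands and the apelin receptor Aplnr in each rat, with groups on the x axes, a point per rat and the mean with 1 SD as bars. Pgf of the 5 Cmpd 1 rats lies between 1.99 and 2.72, beside 1.92 to 3.82 in the Lean rats, and Angpt1 of all 15 obese rats lies below every Lean rat.

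Among 9 receptors, 1 rose and 2 fell in Obese versus Lean, and 1 rose in Cmpd 1 versus Food matched. Nrp1 (ENSRNOG00000010744, chr19:61332351-61485858, plus strand) encodes neuropilin 1, a co-receptor for Vegfa and for semaphorins that macrophages carry too. Nrp1 stood at 415, 409, 409, 396 and 418 CPM in Cmpd 1 rats, against 508, 603, 483, 568 and 506 CPM in Food matched rats. Obese rats had Nrp1 at 492, 472, 539.8, 530.2 and 516 CPM, against 258, 291, 325, 328 and 313 CPM in Lean rats. No Obese rat overlapped a Lean rat, and no Cmpd 1 rat overlapped a Food matched rat. Nrp1 rose in Obese versus Lean, with a log2 fold change of 0.75 (SE 0.07, adjusted p = 1.5e-08). Nrp1 was lower in Cmpd 1 versus Food matched, -0.38 (SE 0.07, adjusted p = 0.00048), but under the fold threshold. The macrophage markers moved the same way, with 5 of 8 called higher and 1 lower in Obese versus Lean and 5 of 8 lower in Cmpd 1 versus Food matched, over the summed ranges given above. Their part in the values of Nrp1 and Pgf was not tested.

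Tek (ENSRNOG00000008587, chr5:113725717-113852799, plus strand) is the receptor of the angiopoietins. Tek stood at 93.4, 93.5, 127, 106 and 109 CPM in Cmpd 1 rats, against 80.1, 89.1, 70.3, 90.6 and 87.7 CPM in Food matched rats. Obese rats had Tek at 92.0, 81.3, 93.5, 67.7 and 82.3 CPM, against 159, 142, 137, 144 and 143 CPM in Lean rats. Lean rats were again above every rat of the obese groups, and every Cmpd 1 rat was above every Food matched rat. Tek fell in Obese versus Lean, -0.80 (SE 0.09, adjusted p = 4.4e-07), and had 0.34 (SE 0.09, adjusted p = 0.011) in Cmpd 1 versus Food matched, under the fold threshold. Ligand Angpt1 and receptor Tek were thus both lower in Obese rats, whereas ligand Apln was higher and its receptor lower.

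Aplnr (ENSRNOG00000009227, chr3:72540538-72544182, plus strand) is that apelin receptor, found on endothelial cells. Aplnr stood at 74.4, 58.6, 57.0, 52.7 and 53.1 CPM in Cmpd 1 rats, against 15.3, 15.3, 13.0, 28.5 and 54.5 CPM in Food matched rats. Obese rats had Aplnr at 53.3, 41.0, 50.0, 26.3 and 25.2 CPM, against 89.0, 66.5, 79.4, 76.7 and 92.7 CPM in Lean rats. All Obese rats were below all Lean rats. Food matched rats spread widely, with rats 1 to 3 at 13.0 to 15.3 CPM and rat 5 within the range of Cmpd 1 rats. Aplnr fell in Obese versus Lean, -1.05 (SE 0.30, adjusted p = 0.0069), and rose in Cmpd 1 versus Food matched, 1.23 (SE 0.30, adjusted p = 0.0062). Without each rat in turn, the second value ran from 1.06 to 1.71 and stayed called. Food matched and Obese rats overlapped and differed by -0.63 (SE 0.30, adjusted p = 0.47), but without Food matched rat 5 the difference was -1.12, with an adjusted p of 0.021.

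Kdr and Flt1, the receptors of Vegfa, were not called in any comparison. Kdr stood at 205, 152, 213, 192 and 161 CPM in Cmpd 1 rats, against 179, 185, 143, 187 and 197 CPM in Food matched rats. Obese rats had Kdr at 232, 184, 180.3, 156 and 171 CPM, against 193, 173, 206, 194 and 196 CPM in Lean rats. The groups overlapped in both comparisons, at -0.058 (SE 0.11, adjusted p = 0.68) in Obese versus Lean and 0.05 (SE 0.11, adjusted p = 0.79) in Cmpd 1 versus Food matched. Flt1 stood at 95.5, 76.3, 113, 91.1 and 107 CPM in Cmpd 1 rats, against 87.8, 89.9, 67.6, 93.3 and 92.3 CPM in Food matched rats. Obese rats had Flt1 at 99.7, 82.3, 89.1, 66.0 and 81.9 CPM, against 106, 102, 113, 122 and 124 CPM in Lean rats. Each Obese rat had less Flt1 than each Lean rat, with -0.43 (SE 0.11, adjusted p = 0.0029), under the fold threshold. Cmpd 1 and Food matched rats overlapped, with 0.16 (SE 0.11, adjusted p = 0.32).

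The remaining receptors had log2 fold changes between -0.27 and 0.29 in both comparisons. Nrp2, a co-receptor for Vegfc, had 0.29 (SE 0.06, adjusted p = 0.00036) in Obese versus Lean and -0.27 (SE 0.06, adjusted p = 0.0021) in Cmpd 1 versus Food matched. Flt4, the Vegfc receptor, had -0.27 (SE 0.13, adjusted p = 0.11) and 0.14 (SE 0.14, adjusted p = 0.53). Tie1, a partner of Tek, had 0.18 (SE 0.06, adjusted p = 0.024) and -0.04 (SE 0.06, adjusted p = 0.72). Eng, a co-receptor for TGF-β family ligands on endothelium, had 0.068 (SE 0.09, adjusted p = 0.56) and -0.049 (SE 0.09, adjusted p = 0.76).

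No Notch gene was called in either comparison by edgeR. Notch signalling between neighbouring endothelial cells decides which cell leads a sprout, with Dll4 as the ligand of the leading cell. In Obese versus Lean, Jag1 had -0.33 (SE 0.07, adjusted p = 0.0011) and Notch1 -0.27 (SE 0.08, adjusted p = 0.0072), which are the 2 of 4 with an adjusted p under 0.05. Dll4 had -0.085 (SE 0.10) and Notch4, the endothelial Notch receptor, -0.093 (SE 0.10). Jag1 in Cmpd 1 versus Food matched had 0.34 (SE 0.07, adjusted p = 0.0028), against 0.18 (SE 0.10) for Dll4, 0.13 (SE 0.08) for Notch1 and -0.0081 (SE 0.10) for Notch4.

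Of 7 junction and surface genes, 3 fell in Obese versus Lean and none was called in Cmpd 1 versus Food matched by edgeR. Cdh5 encodes VE-cadherin, the adhesion protein of endothelial junctions. Cdh5 stood at 269.6, 220.2, 284, 268 and 279 CPM in Cmpd 1 rats, against 219, 212, 191, 278 and 305 CPM in Food matched rats. Obese rats had Cdh5 at 349, 263, 283, 217 and 238 CPM, against 304, 269, 309, 291 and 323 CPM in Lean rats. The groups overlapped in both comparisons, and the log2 fold changes were -0.15 (SE 0.12, adjusted p = 0.35) and 0.13 (SE 0.12, adjusted p = 0.5).

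Cldn5 (ENSRNOG00000045811, chr11:86356294-86357718, minus strand) encodes a tight junction protein of endothelium. Cldn5 stood at 45.9, 42.5, 42.9, 48.5 and 52.9 CPM in Cmpd 1 rats, against 22.7, 30.1, 27.3, 38.5 and 41.7 CPM in Food matched rats. Obese rats had Cldn5 at 45.2, 41.3, 40.4, 30.8 and 36.3 CPM, against 78.7, 69.2, 62.6, 59.2 and 68.8 CPM in Lean rats. Neither pair of groups overlapped. Cldn5 fell in Obese versus Lean, -0.80 (SE 0.13, adjusted p = 4.1e-05), and had 0.54 (SE 0.13, adjusted p = 0.006) in Cmpd 1 versus Food matched, just under the fold threshold. Without the 5 libraries with RNA of other tissues, the first value was -0.57 and not called, and the second was 0.64 and called. The second was called also without Food matched rat 4 (0.61) or rat 5 (0.65).

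Plvap (ENSRNOG00000017676, chr16:19906318-19918689, minus strand) forms the diaphragms of endothelial pores and vesicles. Plvap stood at 37.0, 47.9, 47.7, 49.7 and 50.4 CPM in Cmpd 1 rats, against 38.4, 54.3, 32.4, 40.5 and 43.0 CPM in Food matched rats. Obese rats had Plvap at 49.7, 47.5, 52.9, 39.2 and 43.6 CPM, against 95.4, 75.6, 76.5, 85.7 and 88.0 CPM in Lean rats. All 15 obese rats were below all 5 Lean rats. Plvap fell in Obese versus Lean, with a log2 fold change of -0.85 (SE 0.11, adjusted p = 3.2e-06) on the log2 scale, and differed by 0.16 (SE 0.11, adjusted p = 0.37) between Cmpd 1 and Food matched rats, which overlapped.

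Mcam (ENSRNOG00000007726, chr8:48472824-48481001, plus strand), also called CD146, is an adhesion protein of endothelium and pericytes. Mcam stood at 720.5, 727, 741, 799 and 751 CPM in Cmpd 1 rats, against 564, 520.1, 583, 571 and 636 CPM in Food matched rats. Obese rats had Mcam at 670.0, 706, 591, 578 and 644 CPM, against 1155, 964, 979, 947 and 1097 CPM in Lean rats. Lean rats were the highest, and every Cmpd 1 rat lay above every Food matched and every Obese rat. Mcam fell in Obese versus Lean, -0.69 (SE 0.07, adjusted p = 5.4e-08), and had 0.38 (SE 0.07, adjusted p = 0.00056) in Cmpd 1 versus Food matched, under the fold threshold. Without the 5 libraries the first value was -0.55 and not called.

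Emcn, a sialomucin of capillaries and veins, had -0.43 (SE 0.12, adjusted p = 0.0043) in Obese versus Lean and 0.21 (SE 0.12, adjusted p = 0.21) in Cmpd 1 versus Food matched. Robo4, an endothelial receptor for vessel stability, had -0.50 (SE 0.12, adjusted p = 0.0017) and 0.097 (SE 0.12, adjusted p = 0.63). Esam, a junction adhesion molecule, had 0.044 (SE 0.08, adjusted p = 0.67) and -0.11 (SE 0.08, adjusted p = 0.32). Robo4 and Esam are neighbours, 106933 bases apart on chromosome 8.

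Egfl7 (ENSRNOG00000019388, chr3:4034921-4043936, plus strand) encodes a matrix protein that endothelial cells secrete. Egfl7 stood at 61.6, 48.1, 51.2, 52.9 and 50.3 CPM in Cmpd 1 rats, against 27.8, 35.6, 25.5, 38.4 and 42.6 CPM in Food matched rats. Obese rats had Egfl7 at 50.3, 38.5, 44.0, 34.8 and 33.1 CPM, against 71.4, 59.5, 51.4, 56.7 and 59.1 CPM in Lean rats. The groups did not overlap in either comparison. Egfl7 rose in Cmpd 1 versus Food matched, 0.64 (SE 0.13, adjusted p = 0.0017), and had -0.57 (SE 0.13, adjusted p = 0.0012) in Obese versus Lean, just under the fold threshold. The first value was 0.55 to 0.57 and not called without Food matched rat 1, without Food matched rat 3 or without Cmpd 1 rat 1. The second was called without Lean rat 3, Obese rat 1 or Obese rat 3, at -0.61 to -0.66. Notch1 lies 83896 bases from Egfl7 on chromosome 3.

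Nos3, the endothelial nitric oxide synthase, had -0.51 (SE 0.09, adjusted p = 7e-05) in Obese versus Lean and 0.31 (SE 0.09, adjusted p = 0.014) in Cmpd 1 versus Food matched. Vwf, the clotting glycoprotein stored in endothelium, had -0.015 (SE 0.10, adjusted p = 0.92) and -0.46 (SE 0.10, adjusted p = 0.002). The 3 transcription factors were not called in either comparison by edgeR. Erg, an ETS factor that maintains endothelial identity, had -0.18 (SE 0.10, adjusted p = 0.17) and 0.17 (SE 0.11, adjusted p = 0.26). Sox17, an arterial factor, had -0.30 (SE 0.12, adjusted p = 0.045) and 0.057 (SE 0.12, adjusted p = 0.79). Sox18, a factor of vascular and lymphatic development, had -0.26 (SE 0.17, adjusted p = 0.23) and 0.29 (SE 0.17, adjusted p = 0.26).

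**Figure D3:**
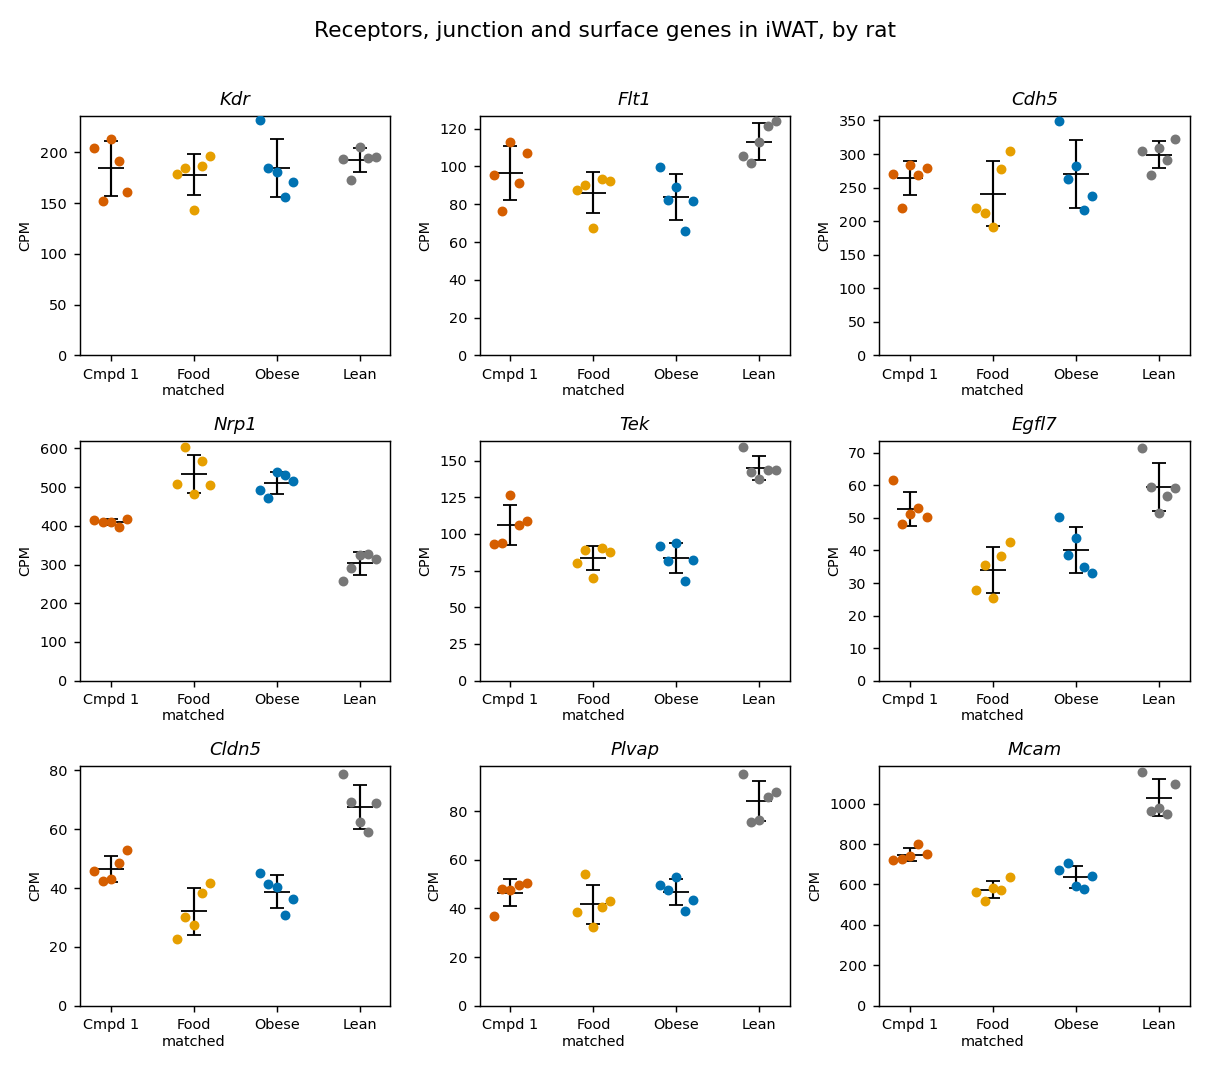
CPM (y axes, from 0) of 9 receptor, junction, surface and secreted genes in each rat, with groups on the x axes, a point per rat and the mean with 1 SD as bars. Kdr and Cdh5 overlap across the groups, while all Lean rats lie above all Obese rats for Tek, Egfl7, Cldn5, Plvap and Mcam and below them for Nrp1.

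Both lymphatic markers fell in Obese versus Lean. Prox1 (ENSRNOG00000003694, chr13:108382399-108443294, plus strand) is the transcription factor that sets lymphatic endothelial identity. Prox1 stood at 0.106, 0.0503, 0.208, 0.0919 and 0.211 CPM in Cmpd 1 rats, against 0.0552, 0.285, 0.0677, 0.369 and 0 CPM in Food matched rats. Obese rats had Prox1 at 0.0146, 0.0513, 0.0350, 0.0722 and 0.206 CPM, against 0.685, 3.39, 0.443, 0.0839 and 0.642 CPM in Lean rats. In reads, Obese rats had 1, 3, 2, 4 and 14 and Lean rats 35, 240, 24, 5 and 42. Lean rat 4 lay within the range of Obese rats, so the groups overlapped, and Lean rat 2 held most of the Lean reads. Prox1 fell in Obese versus Lean, with a log2 fold change of -3.74 (SE 0.89, adjusted p = 0.0015) on the log2 scale. That value was -2.56 without Lean rat 2 and -4.58 without Obese rat 5. Without the 5 libraries with RNA of other tissues it was -1.71, with an adjusted p of 0.17, and not called. The Lean rats left in that setting were rats 3 and 4, with 24 and 5 reads. Prox1 in Cmpd 1 versus Food matched had -0.28 (SE 0.88, adjusted p = 0.87), with 3 to 12 reads per Cmpd 1 rat and 0 to 27 per Food matched rat, too few to place it closely.

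Pdpn (ENSRNOG00000014961, chr5:161947137-161981441, minus strand) encodes podoplanin, which lymphatic endothelium carries along with mesothelium and some fibroblasts. Pdpn stood at 7.05, 29.4, 22.4, 24.4 and 27.3 CPM in Cmpd 1 rats, against 22.5, 37.4, 14.2, 14.6 and 17.3 CPM in Food matched rats. Obese rats had Pdpn at 10.4, 24.3, 17.5, 8.48 and 11.7 CPM, against 73.0, 58.7, 50.3, 51.1 and 41.0 CPM in Lean rats. All Obese rats were below all Lean rats, and Cmpd 1 and Food matched rats overlapped. Pdpn fell in Obese versus Lean, -1.92 (SE 0.34, adjusted p = 9.5e-05), and had 0.055 (SE 0.33, adjusted p = 0.94) in Cmpd 1 versus Food matched. Cmpd 1 rat 1 had the lowest Pdpn of all 20 rats.

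Markers of neighbouring tissues were measured beside them. The 4 mesothelial markers summed to 2.06 to 95.0 CPM in Obese rats, against 9.45 to 260.3 CPM in Lean rats, and 1 of 4 was called lower in Obese versus Lean. The highest sums were in Lean rat 1 and, among Obese rats, in Obese rat 2, where the other 4 Obese rats had at most 6.05 CPM. Obese rat 2, which is not among the 5 libraries above, also had the highest Pdpn of the Obese rats, and Pdpn was -2.18 without it. The 8 lymph node markers tested summed to 6.25 to 15.7 CPM in Obese rats, against 33.3 to 69.4 CPM in Lean rats, and 3 of them were called lower, while 3 of the 8 were at 0 in a library. The part of either list in the Prox1 and Pdpn results was not tested.

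Other lymphatic genes moved the same way. Of 7 listed, 5 were called lower and none higher in Obese versus Lean, where 11.0% of all genes were called lower. The other 2 had negative values and were not called, and the median log2 fold change of the list was -1.69. Flt4, the receptor through which Vegfc mainly acts on lymphatic vessels, is a member outside this list and was not called, at -0.27. The 7 listed genes summed to 39.8 to 67.3 CPM in Obese rats, against 121.6 to 225.7 CPM in Lean rats, with no overlap. Ccl21, the chemokine that draws cells into lymphatics, fell by 5.91 on the log2 scale (SE 1.32, adjusted p = 0.00088). Mmrn1, a matrix protein of lymphatic endothelium, fell by 4.85 on the log2 scale (SE 0.92, adjusted p = 0.00019), and Ackr2, a chemokine scavenger, fell by 1.69 (SE 0.38, adjusted p = 0.00094). Mmrn1 was -3.93 without Lean rat 2. Without the 5 libraries Mmrn1 was -3.48 and Ccl21 -5.05, both still called. The part of the lymph node and mesothelial markers in the values of these genes was not tested. None of the 7 was called in Cmpd 1 versus Food matched by edgeR, none had an unadjusted p under 0.05, and the sums were 40.0 to 114 CPM in Cmpd 1 rats, against 44.9 to 208 CPM in Food matched rats. Ccl21 had -1.81 (SE 1.14, adjusted p = 0.29) there, and 1.56 without Food matched rat 2, which held the highest sum.

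**Figure D4:**
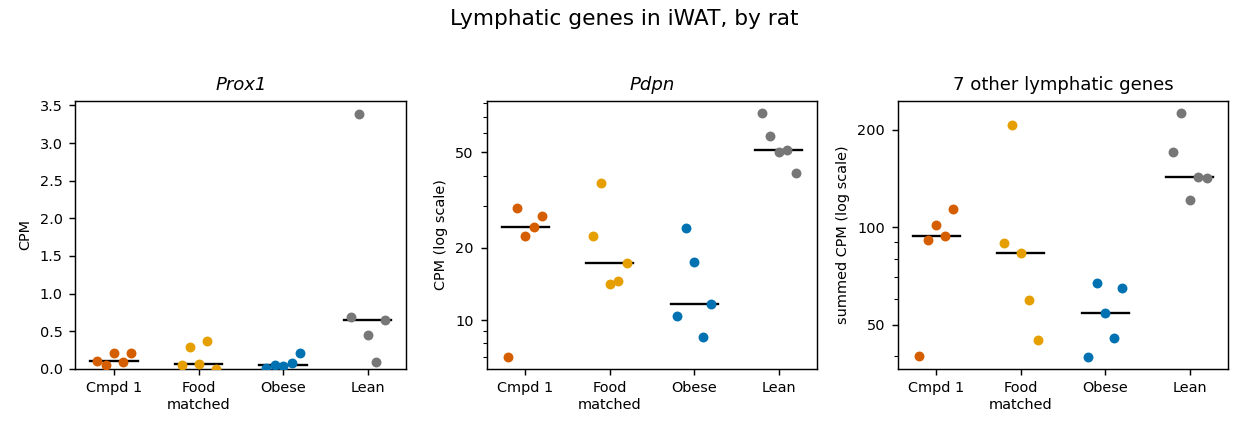
Prox1 and Pdpn CPM and the summed CPM of 7 other lymphatic genes (y axes, log scales for Pdpn and the sum) in each rat, with groups on the x axes, a point per rat and bars at the median. Lean rat 2 stands at 3.39 CPM of Prox1, and all Obese rats lie below all Lean rats for Pdpn and the sum.

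Levels are compared between genes only per length, as RPKM, the CPM per kilobase of the length given in the table. In Obese rats the highest member was Mcam at 219.7 ± 18.4, against 354 ± 31.7 in Lean rats (RPKM, mean ± SD, n = 5 each). Nrp1 was the second in Obese rats, at 91.3 ± 4.97 RPKM, and the fifth in Lean rats, at 54.3 ± 5.22 RPKM. In Lean rats the order after Mcam was Vegfb at 75.4 ± 4.02, Cdh5 at 74.3 ± 5.07 and Eng at 55.7 ± 4.32 RPKM. Vegfb and Cdh5 in Lean rats differed by less than 1 SD, as did Eng and Nrp1. Among the ligands, Vegfa stood at 53.7 ± 2.38 RPKM in Cmpd 1 rats and 34.4 ± 4.22 RPKM in Food matched rats. The least abundant were Prox1, at 0.0105 RPKM in Obese and 0.145 RPKM in Lean rats, and in Lean rats next Pgf, at 1.61 ± 0.550 RPKM. Kdr stood between 28.1 and 30.4 RPKM in the 4 group means.

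Members were also set against a list of other genes of endothelial cells, to see which moved apart from that list. The cells that made each member's RNA were not tested. The 29 genes of this list had a median log2 fold change of -0.39 in Obese versus Lean, with 3 lower and 0 higher, and 20 lower and 1 higher by adjusted p alone. In Cmpd 1 versus Food matched their median was 0.23, with none called by edgeR, 11 higher and 1 lower by adjusted p alone, and an unadjusted p under 0.05 for 15 on the higher side and 1 on the lower. When the libraries were scaled on these 29 genes, the median of all genes tested was 0.31 in Obese versus Lean and -0.22 in Cmpd 1 versus Food matched. Among all called genes, the share that was higher was then 75.9% and 5.21% in these comparisons, instead of 50.7% and 24.9%. Under that scaling 4 members were higher (Pgf, Apln, Nrp1 and Nrp2) and 4 lower (Angpt1, Aplnr, Prox1 and Pdpn) in Obese versus Lean. Plvap (-0.54), Cldn5 (-0.49), Tek (-0.49), Mcam (-0.37) and Vegfc (-0.32) then lay under the fold threshold, still lower by adjusted p alone (0.00012 for Plvap and 0.049 for Vegfc). The other 7 calls were kept and Nrp2 was gained. Under the fold threshold, Tie1 (0.50), Angpt2 (0.45), Eng (0.38), Esam (0.36) and Vwf (0.30) were higher by adjusted p alone in Obese versus Lean. So were Kdr (0.25), Notch4 (0.22) and Dll4 (0.22), while Egfl7 (-0.26) and Nos3 (-0.20) were lower. In Cmpd 1 versus Food matched, Aplnr was higher (1.07), and Pgf (-2.07), Apln (-0.70), Nrp1 (-0.60) and Vwf (-0.68) were lower. The calls of Vegfa, Vegfc and Egfl7 were lost. Vegfa (0.43, adjusted p = 0.0013), Egfl7 (0.43, adjusted p = 0.003) and Cldn5 (0.33) were still higher by adjusted p alone, while Vegfc had 0.36 (adjusted p = 0.051). Lower by adjusted p alone were Angpt2 (-0.52), Nrp2 (-0.49), Esam (-0.33), Tie1 (-0.26), Eng (-0.26) and Notch4 (-0.22). Pgf and Aplnr were thus called in both comparisons under both scalings, in the same directions. Kdr and Cdh5 changed sign in both comparisons, from slightly lower to 0.25 and 0.16 in Obese versus Lean and from slightly higher to -0.17 and -0.075 in Cmpd 1 versus Food matched. Flt4, Dll4, Notch1, Sox17 and Erg changed sign in both as well.

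**Figure D5:**
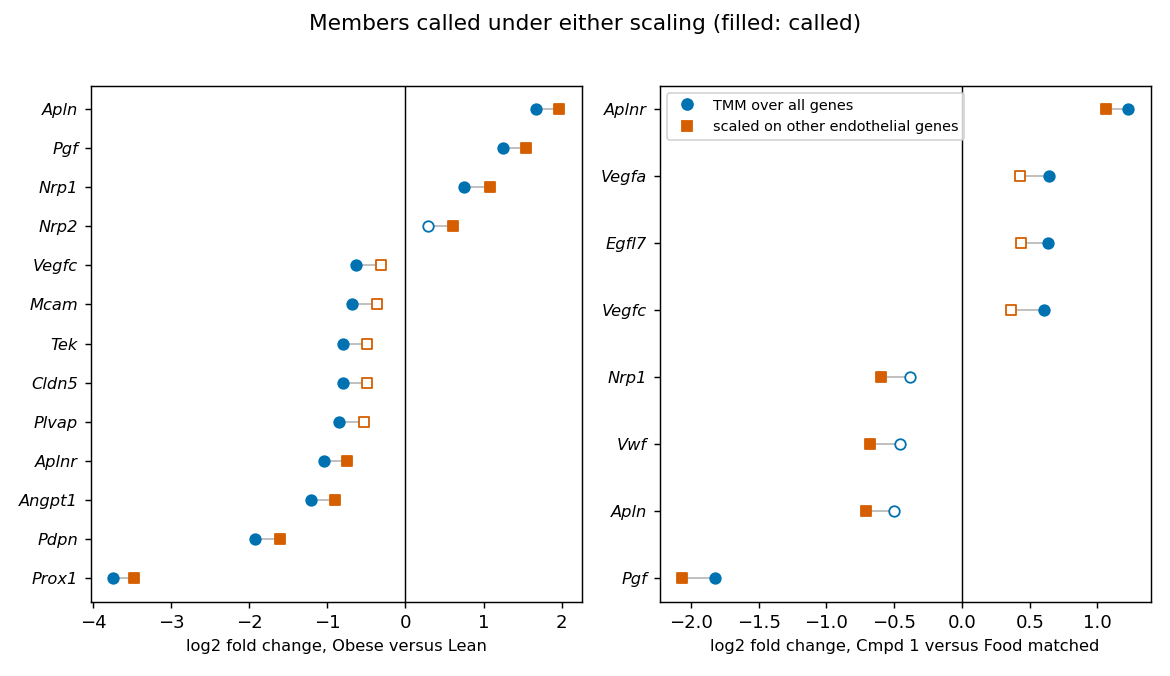
Log2 fold changes (x axes) of members called under either scaling (y axes), in Obese versus Lean on the left and Cmpd 1 versus Food matched on the right, with circles for TMM over all genes and squares for scaling on 29 other endothelial genes, filled where called. Under the second scaling all points lie further right on the left panel and further left on the right panel. Apln, Pgf and Nrp1 stay called on the higher side of the left panel.

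Other vessel gene lists gave the following counts, with medians beside the -0.014 and 0.0058 of all genes tested in the 2 comparisons. Of all genes, 22.3% were called in Obese versus Lean and 6.19% in Cmpd 1 versus Food matched. In Obese versus Lean the called share was 22.2% of capillary lipid handling, 21.4% of arterial and venous, 23.1% of tip cell and sprouting and 21.4% of mural cell genes, all close to that background. It was 10.3% of the 29 other endothelial genes, 33.3% of angiogenesis inhibitors and 42.9% of other angiogenic factors. The 3 other endothelial genes lower in Obese versus Lean were Cd34 (-0.94, SE 0.17), a surface sialomucin that progenitors carry too, Arhgef15 (-0.70, SE 0.13) and Tm4sf1 (-0.68, SE 0.11), a tetraspanin-like protein. Without the 5 libraries with RNA of other tissues, Tm4sf1 (-0.51) and Arhgef15 (-0.56) were not called, while Cd34 was. The smallest p in Cmpd 1 versus Food matched was that of Palmd, at 0.51 (SE 0.08, adjusted p = 0.00026).

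Among 9 genes of capillary lipid handling, 1 rose and 1 fell in Obese versus Lean, with a median of -0.12. Fabp5, a fatty acid binding protein of capillaries and macrophages, rose by 1.54 (SE 0.12, adjusted p = 3.8e-09) in Obese versus Lean and fell by 0.65 on the log2 scale (SE 0.12, adjusted p = 0.00073) in Cmpd 1 versus Food matched, where it was 1 of 9 called. That fall was -0.58 and not called without Food matched rat 1 or without Cmpd 1 rat 4. Meox2, a transcription factor of fat and muscle capillaries, fell by 0.59 on the log2 scale (SE 0.14, adjusted p = 0.0013) in Obese versus Lean, at the fold threshold, and was not called without Lean rat 1 or 4 or without Obese rat 3, 4 or 5 (-0.49 to -0.58), nor without the 5 libraries (-0.45). Of 14 arterial and venous genes, 3 fell and none rose in Obese versus Lean, with a median of -0.29. They were the arterial Notch target Hey2 (-3.46, SE 0.24, adjusted p = 1.1e-09), the venous factor Nr2f2 (-0.93, SE 0.13, adjusted p = 5.7e-06) and Bmx (-0.61, SE 0.16, adjusted p = 0.0041), a kinase of arterial endothelium. Bmx was -0.56 and not called without Lean rat 1, Lean rat 2 or Obese rat 2, and without the 5 libraries it was -0.40 (adjusted p = 0.20). Sele, an adhesion molecule of inflamed endothelium, was the 1 called in Cmpd 1 versus Food matched, at -0.80 (SE 0.28, adjusted p = 0.045), and lost that call without Food matched rat 2, 4 or 5 or without Cmpd 1 rat 1, 3, 4 or 5 (-0.59 to -0.85), and without the 5 libraries (-0.83, adjusted p = 0.051).

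Of 13 tip cell and sprouting genes, 2 rose and 1 fell in Obese versus Lean, with a median of 0.12. Cxcr4, a chemokine receptor that leucocytes carry as well, rose by 0.70 (SE 0.09, adjusted p = 2.2e-06) and the integrin Itgav by 0.64 (SE 0.09, adjusted p = 6.1e-06), the second not called without Lean rat 1 (0.54), without Lean rats 1 and 2 together (0.53) or without the 5 libraries (0.52). Nid2, of the basement membrane, fell in Obese versus Lean, -0.70 (SE 0.15, adjusted p = 0.00054), and rose in Cmpd 1 versus Food matched, 0.62 (SE 0.15, adjusted p = 0.0051), the second not called without Food matched rat 1 or 2 or without Cmpd 1 rat 4 (0.53 to 0.57). The 12 angiogenesis inhibitors had 2 higher and 2 lower, with a median of 0.13. Thbs1 rose by 0.80 (SE 0.17, adjusted p = 0.00043) and Adamts1 by 0.74 (SE 0.16, adjusted p = 0.00081), and Hhip fell by 2.34 on the log2 scale (SE 0.60, adjusted p = 0.0027). Adamts1 was 0.58 and not called without Obese rat 1, and neither Thbs1 (0.48) nor Hhip (-1.50) was called without the 5 libraries. None of the 12 was called in Cmpd 1 versus Food matched by edgeR, where an unadjusted p under 0.05 was met by 2 on the higher side and 3 on the lower and Sema3f had the smallest p, at 0.30 (SE 0.06, adjusted p = 0.0017).

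Other angiogenic factors had 1 higher and 5 lower of 14 in Obese versus Lean, with a median of -0.13. Bmp4, a factor of vessels and of fat cell commitment, fell by 2.35 on the log2 scale (SE 0.18, adjusted p = 2.8e-09), Angpt4 fell by 1.74 (SE 0.14, adjusted p = 4.4e-09), and Hgf, hepatocyte growth factor, rose by 0.95 (SE 0.10, adjusted p = 1.5e-07). Ptn, pleiotrophin, was the 1 called in Cmpd 1 versus Food matched, at -1.57 (SE 0.33, adjusted p = 0.0018). Among 14 mural cell genes, which mark pericytes and smooth muscle, 3 fell in Obese versus Lean: Mustn1 (-0.69, SE 0.12, adjusted p = 5.1e-05), Myh11 (-0.70, SE 0.17, adjusted p = 0.0018) and Cnn1 (-2.59, SE 0.68, adjusted p = 0.0038). Without Lean rats 1 and 2, the Lean libraries with high skeletal muscle markers, none of the 3 was called, with Mustn1 at -0.56, Myh11 at -0.42 and Cnn1 at -0.53 (adjusted p = 0.37). Without the 5 libraries Mustn1 was -0.49, Myh11 -0.32 and Cnn1 -0.070 (adjusted p = 0.94). Leaving out Lean rat 2 alone gave -1.07 for Cnn1 and -0.45 for Myh11, neither called. Cspg4, a pericyte proteoglycan, had 0.59 (SE 0.13, adjusted p = 0.0027) in Cmpd 1 versus Food matched and Des, which skeletal muscle makes too, -1.57 (SE 0.49, adjusted p = 0.026). Cspg4 was not called without Food matched rat 1, 2 or 3 or without Cmpd 1 rat 4 or 5 (0.49 to 0.58), nor Des without Food matched rat 2 or without Cmpd 1 rat 3 or 4 (-1.42 to -1.54).

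The other 4 comparisons share samples with the main ones, so their values are given side by side and are no separate evidence. Against Obese rats, Cmpd 1 rats had 2 members called lower and none higher, where 3.53% of all genes were called (0.731% higher and 2.80% lower). By adjusted p alone 7 were higher and 4 lower, where 7.09% and 6.93% of all genes passed. No member was higher by DESeq2 or limma-voom either, and 11 were higher at an unadjusted p under 0.05. The lower ones were Pgf, at -1.32 (SE 0.20, adjusted p = 0.00069), and Apln, at -1.03 (SE 0.20, adjusted p = 0.0032). Vegfa had 0.48 (SE 0.08, adjusted p = 0.0015) there, under the fold threshold. In Food matched versus Obese no member was called by edgeR, which called 0% of all genes. Unadjusted, 4 members had a p under 0.05 on the higher side and 3 on the lower. Limma-voom called 10 genes of all tested and DESeq2 69, with no member among them. Without the 5 libraries Apln (-0.81) and Aplnr (-1.23) were called lower in that comparison.

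Against Lean rats, Cmpd 1 rats had 1 member called higher and 4 lower, where 16.6% of all genes were called (7.47% and 9.11%). By adjusted p alone 5 were higher and 11 lower, where 39.0% of all genes passed (20.3% and 18.6%). Apln was higher at 0.64 (SE 0.20, adjusted p = 0.016), and Angpt1 (-1.18, SE 0.14, adjusted p = 1.2e-06), Plvap (-0.86, SE 0.11, adjusted p = 6.7e-06), Prox1 (-2.96, SE 0.85, adjusted p = 0.0085) and Pdpn (-1.31, SE 0.34, adjusted p = 0.0038) were lower. Apln lost this call without Cmpd 1 rat 1 (0.49), and Prox1 without Lean rat 2 (-1.78). Neither was called without the 5 libraries, with Prox1 at -0.95 (adjusted p = 0.46) and Apln at 0.56 (adjusted p = 0.088). In Food matched versus Lean, 3 members were higher and 10 lower, where 25.3% of all genes were called (12.5% and 12.8%). By adjusted p alone 6 were higher and 20 lower, where 52.2% of all genes passed (25.4% and 26.9%). The higher ones were Pgf (1.74, SE 0.20, adjusted p = 3.4e-07), Apln (1.14, SE 0.20, adjusted p = 7.8e-05) and Nrp1 (0.82, SE 0.07, adjusted p = 3.3e-09), and the lower ones were the 9 lower in Obese versus Lean and Egfl7 (-0.81, SE 0.13, adjusted p = 2.7e-05). Prox1 lost this call without Lean rat 2 (-1.51, adjusted p = 0.098) and without the 5 libraries (-0.38, adjusted p = 0.77). Over the 6 comparisons 21 of the 35 members were never called.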

How the data were processed

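Bulk RNA sequencing of iWAT gave 20 libraries, 5 rats for each of 4 groups, from a stranded mRNA kit. The authors deposited 1 table of raw gene counts with rn6 coordinates and a length for each gene. The study's methods name rn6 for the alignment, while the submitters' processing notes list STAR 2.5.2, Subread 1.5.1 with featureCounts and the build GRCh38. Whether counting used strand is not given in the sources used here, so overlapping and antisense genes may share reads. The deposited counts were whole numbers and not normalized, and the length column served only for levels per kilobase. No column of the table was left unused.

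The filter removed genes that lacked reads in at least 10 of 20 libraries (14892 genes, of which 10187 had no read at all). Counts were tested with edgeR 4.0.16 in R 4.3.3 (quasi-likelihood, TMM) in 1 fit of the 4 groups, with 16 residual degrees of freedom, and adjusted over the 17653 genes tested. The standard error of a log2 fold change is its size over the square root of the F value. Alternatives were limma-voom (limma 3.58.1), DESeq2 1.42.0, other scalings and filters (no filter, or at least 1 CPM in 5 libraries), a replicate block, and leaving out libraries. The method was tested on simulated data first. Python 3.11.15 with pandas 2.3.3 and matplotlib 3.10.9 made the summaries and plots. Libraries of a group were compared in pairs and no 2 held the same values. Precision rests on the spread between rats within groups of 5, shared over the 4 groups in the fit, and intervals were not drawn from counts.

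Values of every rat are given for members called in either main comparison and for Vegfa, Kdr, Flt1 and Cdh5. From each other list up to 3 called genes with the smallest adjusted p are named, or 1 gene with the smallest p where none was called. The members and lists were chosen with earlier results of these data known. Promoter windows came from RefSeq (GRCr8) and were matched by symbol. Pecam1 and names without a row were not analysed here.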

Additional observations from a re-analysis of the deposited data

Results flagged for a closer look

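Within a group of 5 rats, 1 rat stood apart from the rest for 13 of the 140 combinations of member and group checked, by Dixon's test, which chance alone meets in about 1 of 20 such groups. Cmpd 1 rat 1 stood apart for Aplnr at 74.4 CPM (highest, nearest other rat 58.6), Nrp2 at 80.4 CPM (highest, nearest other rat 73.5) and Plvap at 37.0 CPM (lowest, nearest other rat 47.7). Cmpd 1 rat 2 stood apart for Cdh5 at 220.2 CPM (lowest, nearest other rat 268) and Flt4 at 11.1 CPM (lowest, nearest other rat 14.9). Cmpd 1 rat 3 stood apart for Emcn at 64.8 CPM (highest, nearest other rat 55.7). Food matched rat 3 stood apart for Esam at 85.7 CPM (lowest, nearest other rat 103) and Flt1 at 67.6 CPM (lowest, nearest other rat 87.8). Food matched rat 5 stood apart for Jag1 at 60.9 CPM (highest, nearest other rat 54.7). Lean rat 1 stood apart for Angpt2 at 28.7 CPM (highest, nearest other rat 22.1) and Tek at 159 CPM (highest, nearest other rat 144). Lean rat 2 stood apart for Eng at 146 CPM (lowest, nearest other rat 172) and Prox1 at 3.39 CPM (highest, nearest other rat 0.685). Lean rats 1 and 2 are the libraries with skeletal muscle RNA, and that of Food matched rat 5 held some. No Obese rat stood apart for any member.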

How the results depend on the processing

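Values under alternative settings were tallied for the members with every rat given above, in the 2 main comparisons. Of 729 such values, 671 kept their direction and their side of the thresholds, 21 lost a call, 18 gained one and 19 changed sign. Of 694 values of named genes from the other lists, 621 kept both, 69 lost a call, 2 gained one and 2 changed sign. Of 258 counts of members, 232 stayed within 1.5 times. Counts below are members higher, then lower. By construction, dropping the fold threshold gave 5 and 19 in Obese versus Lean, 9 and 4 in Cmpd 1 versus Food matched, 7 and 4 in Cmpd 1 versus Obese, 5 and 11 in Cmpd 1 versus Lean and 6 and 20 in Food matched versus Lean. Scaling on other endothelial genes gave 4 lower in Obese versus Lean, 1 and 4 in Cmpd 1 versus Food matched, 2 higher in Cmpd 1 versus Lean and 6 and 6 in Food matched versus Lean, and this scaling shifts all values by its construction. For the rest the cause was not tested. In Cmpd 1 versus Obese, 1 was higher with library size alone and with only those 2 groups. Without Lean rats 1 and 2 together, and without the 5 libraries (chosen after seeing the data), 0 were higher in Cmpd 1 versus Lean, and without the 5 libraries 2 were lower in Food matched versus Obese.

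Leaving out 1 rat at a time gave 3 to 3 and 8 to 10 in Obese versus Lean, 3 to 4 and 1 to 2 in Cmpd 1 versus Food matched, 0 to 1 and 2 to 2 in Cmpd 1 versus Obese, 0 to 0 and 0 to 1 in Food matched versus Obese, 0 to 1 and 3 to 5 in Cmpd 1 versus Lean and 3 to 3 and 10 to 11 in Food matched versus Lean.

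Signs changed mostly in values near 0. In Cmpd 1 versus Food matched, limma-voom gave 0.40 for Prox1, -0.062 for Pdpn and 0.69 for Ccl21. Scaling on other endothelial genes gave 0.25 for Kdr and 0.16 for Cdh5 in Obese versus Lean. Outside the tallied members it also turned Vwf (0.30), Notch4 (0.22), Dll4 (0.22), Flt4, Notch1, Sox17, Sox18 and Erg from lower to higher. In Cmpd 1 versus Food matched it gave -0.17 for Kdr, -0.053 for Flt1, -0.075 for Cdh5, -0.054 for Plvap and -0.15 for Pdpn. Vegfb, Flt4, Dll4, Notch1, Robo4, Sox17 and Erg also turned from higher to lower in that comparison. There Pdpn was -0.015 without the 5 libraries. Leaving out 1 rat at a time gave -0.073 (Cmpd 1 rat 2) to 0.37 (Food matched rat 2) for Pdpn, -0.019 (Food matched rat 3) to 0.11 (Cmpd 1 rat 2) for Kdr, -0.57 (Food matched rat 5) to 0.30 (Food matched rat 4) for Prox1, and -3.64 (Cmpd 1 rat 3) to 1.56 (Food matched rat 2) for Ccl21. Prox1 and Hhip had no value under the filter of 1 CPM in 5 libraries. At 0 to 240 reads per library, depth limits Prox1.

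The replicate numbers do not pair the samples. Over 30 pairs of libraries with the same number, deviations from the group means correlated at -0.10 to 0.15, with 1 over 0.1, and 3 of 20 libraries correlated best with their own number. A replicate block left every count of members as it was, at 3 and 9, 4 and 1, 0 and 2, 0 and 0, 1 and 4, and 3 and 10 in the order above. Among the named genes it ended the call of Sele alone.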
